A study of Drosophila melanogaster with 2 samples.

Results

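The 34 axon guidance and neural adhesion genes described here were taken from a list of names, and all 34 names matched a protein-coding gene among the 13945 on the 6 chromosome arms of the Drosophila melanogaster annotation. They comprise 8 guidance ligands, 11 guidance receptors with their regulator comm, 3 receptor tyrosine phosphatases and 12 adhesion proteins. The material was whole transgenic embryos aged 8 to 24 hours in which the dati gene product is fused to eGFP, with 2 biological replicates in 1 group. The labels give sonication with a size range of 200 to 800 and an anti-GFP antibody for the precipitation. The embryos were not dissected, so every value mixes all embryonic tissues, which cannot be told apart. The age is taken from the source name, because a separate age label holds a number that no embryo reaches.

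Dati is a zinc-finger protein that has been studied in the fly nervous system. Growing axons read cues from their surroundings: secreted Slit and netrins and secreted or membrane-bound semaphorins act on Robo, Frazzled, Unc-5 and plexin receptors at the growth cone, and Sidestep on target tissue is read by Beat proteins on motor axons. Immunoglobulin and cadherin adhesion molecules and teneurins hold axons in bundles and match them to partners, and receptor tyrosine phosphatases act with both groups inside the axon.

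The authors' thresholded list over both replicates, called the optimal set below, held 1915 peaks, 1892 of them on the 6 arms. Its largest irreproducible discovery rate (IDR, which is lower for a peak with high and similar ranks in a pair of compared lists) was 0.0100. Which lists the authors compared is not stated in the sources used here, so an IDR below is not read as likeness between the 2 replicates. The ranked list behind it held 154044 places on the arms, most of them weak. Each replicate also had a thresholded set of its own, with 1201 peaks in replicate 1 and 859 in replicate 2. Signal values are the authors' own per-peak values on a scale that the sources used here do not give, and read depth is unknown.

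The windows that carry the descriptions below reach 50 bases to each side of a summit (the peak's highest point). They were chosen by strength or position. The beat-Ib summit is the strongest at the genes described here, and those of Fas3 and Ten-a are the strongest of 2 adhesion genes. The others are the intronic summit of a ligand gene (side) and the summit directly upstream of Sema1a. All windows are written 5′ to 3′ on the plus strand of dm6 and were read from the RefSeq Release 6 sequence. Capitals mark matches, on either strand, to any of 12 short motifs; those found here are the TATA box TATAAA, the homeodomain core TAATTA, the GAGA element GAGAG, the E-box CANNTG, the Pleiohomeotic core GCCAT and the A tract AAAAAA.
beat-Ib intron (chr2L:15911236-15911336): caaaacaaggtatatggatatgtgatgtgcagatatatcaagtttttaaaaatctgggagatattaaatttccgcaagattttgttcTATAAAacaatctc
Fas3 intron (chr2L:18325242-18325342): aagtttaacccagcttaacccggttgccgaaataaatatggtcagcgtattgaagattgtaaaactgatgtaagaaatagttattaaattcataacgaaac
Ten-a intron (chrX:12202375-12202475): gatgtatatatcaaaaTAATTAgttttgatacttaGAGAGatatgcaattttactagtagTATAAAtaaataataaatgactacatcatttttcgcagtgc
side intron (chr3R:27407194-27407294): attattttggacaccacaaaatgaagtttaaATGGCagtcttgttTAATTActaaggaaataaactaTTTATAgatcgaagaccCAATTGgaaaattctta
Sema1a upstream of its start (chr2L:8541968-8542068): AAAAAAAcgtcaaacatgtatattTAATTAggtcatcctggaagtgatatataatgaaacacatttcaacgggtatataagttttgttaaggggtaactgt
The Fas3 window held a match to none of the 12 motifs, and the side window held 4 of them. A match is a description of letters and not a bound site.

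Of the 34 genes, 11 had at least 1 optimal summit inside the gene or at most 1000 bp outside it, which is 32.4%. Among all protein-coding genes the percentage was 13.9%. The members are long genes, with a median span of 42582 bp against 2166 bp for all protein-coding genes, and a longer gene has more room for a summit. Each member was therefore set beside the 200 other protein-coding genes nearest to it in span, called genes of like span. For the longest members the match is loose. Their spans ran from 63.0 to 709 kb for Ten-a (292 kb) and from 61.9 to 281 kb for Lar (145 kb). Of the genes of like span, 37.3% had a summit, and the shares summed over the 34 members come to 12.7 genes against the 11 counted. The excess over all genes was thus not present against genes of like span, and the order of the members and these genes rests on the setting. With no margin the like-span percentage was 30.9%, slightly below the members' 32.4%, which is 11 genes at either margin. With neighbours from the same arm it was 31.8%, but an arm has fewer genes to choose from, so the match in span is looser. Chromosome 4 has only 80 protein-coding genes. The same-arm neighbours of its members PlexA and PlexB were therefore all its other genes, whatever their span. The 31.8% is thus not read as a share of genes of like span. The members with a summit had a median span of 57302 bp and those without one 37798 bp. The shortest member with a summit was unc-5 at 27829 bp, and none of the 7 shorter members, among them comm and robo1, held one.

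**Figure D1:**
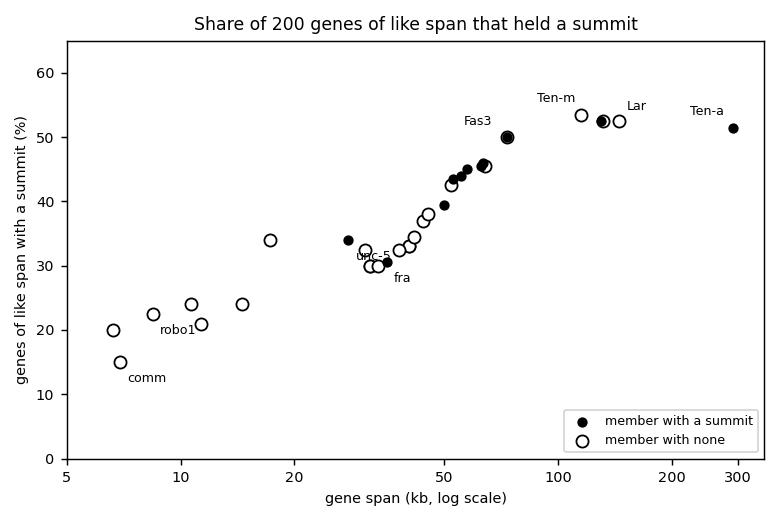
Gene span in kb (log scale) of each of the 34 members against the percentage of its 200 genes of like span that held a summit in the optimal set; filled points are the 11 members with a summit and open points the 23 without. The percentage ranged from 15.0% at the 6920 bp gene comm to 53.5% at Ten-m, and filled points start at 27829 bp.

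By role, 5 of the 8 ligand genes held a summit (sli, NetA, NetB, Sema1a and side), where the like-span shares sum to 3.19. Of the receptor genes with comm, 3 of 11 did (fra, unc-5 and beat-Ib) against a sum of 3.33. Of the phosphatase genes, 1 of 3 did (Ptp10D) against 1.17. Of the adhesion genes, 2 of 12 did (Fas3 and Ten-a) against 5.01. The adhesion genes were thus below, and the ligand genes above, the sum for genes of their span, and no test of these differences was made. Fewer ligand genes held a summit in the replicates' own sets. They were sli, NetB and Sema1a in replicate 1 and sli and NetA in replicate 2. The like-span sums by role are not given for those sets.

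Summits near a start site were few. Within 1000 bp of an annotated start site of the gene, 4 of 34 members (11.8%) had a summit, namely unc-5, Fas3, Sema1a and Ten-a. The percentage was 9.52% over all protein-coding genes and 16.3% over genes of like span. All 11 members with a summit had an intronic one (32.4% of 34), where intronic means inside an intron, outside every exon of the gene and over 500 bp from its start sites. An intronic summit was found at 3.93% of all protein-coding genes and at 27.5% of genes of like span. The like-span shares sum to 9.35 for introns and to 5.53 for start sites.

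The 11 genes held 19 summits, of which 13 were intronic (68.4%), 4 within 500 bp of a start site (21.1%), 1 in coding sequence and 1 upstream of the span. The 1996 distinct genes of like span held 922 summits, each counted once. In the percentages of genes above, a gene instead counts once for each member it was set beside. The weights of the spans therefore differ, and the shares of these 922 summits are not matched in span member by member. Of the 922, 61.7% were intronic, 27.3% within 500 bp of a start site and 0.759% in coding sequence. No member summit lay within 1000 bp of another gene's start site, against 18.3% of these 922 summits. The nearest start site of any gene was nevertheless another gene's for 7 of the 19, all of them inside a member's span. Of the 13 intronic summits, 4 were in intron 1 and 9 were in the longest intron of the transcript. These counts were not set against the lengths of the introns or against summits at other genes. The distances of the 13 to the member's own start sites ran from 1373 to 51149 bp, with a median of 11685 bp. Counted per length, the members held 0.950 summits per 100 kb, against 1.48 for genes of like span, 1.67 for all protein-coding genes and 1.41 over the arms as a whole.

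**Figure D2:**
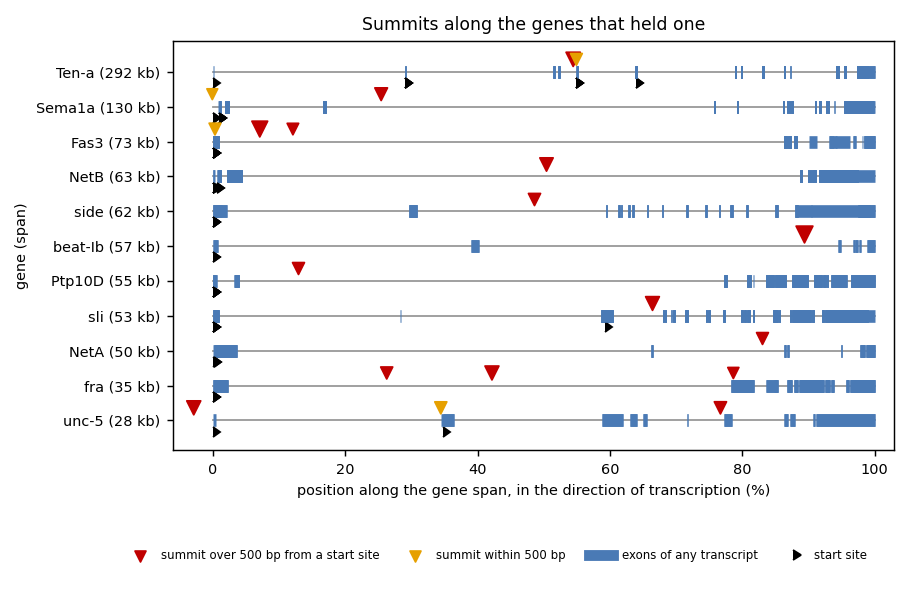
Positions of the 19 optimal summits along the spans of the 11 genes, as a percentage of the span in the direction of transcription; blue blocks are exons of any transcript, black arrows start sites, and triangles summits, larger with higher signal. The 4 orange triangles lie within 500 bp of a start site, at Sema1a, Fas3, Ten-a and unc-5; most of the others lie in long introns.

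Among the ligands, the summit of highest signal was at sli, which encodes the midline repellent Slit. This peak (chr2R:15887045-15887308) had a signal of 90.1 in the list over both replicates, 52.9 in replicate 1 and 36.6 in replicate 2. It lay in intron 2, 3740 bp downstream of a start site of sli, and was in the thresholded set of each replicate.

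The netrin genes NetA and NetB, neighbours on the X chromosome, encode the secreted midline attractants. Each held 1 intronic summit far from its own start sites. The NetB peak had a signal of 83.2, with 43.0 in replicate 1 and 36.3 in replicate 2. It lay in intron 3, 53377 bp long, 31564 bp from the nearest NetB start site and 1496 bp from that of hog, the nearest start site of any gene. The NetA peak (chrX:14612408-14612671) was weaker at 60.9, with 25.5 and 36.3 in replicates 1 and 2, and lay in intron 2, 41294 bp from a NetA start site. NetB passed the threshold in replicate 1's own set alone and NetA in replicate 2's alone. The summit of NetA in replicate 2 was 82 bp from that in the joint list, the largest such shift among the members.

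Sema1a, a transmembrane semaphorin that acts as ligand and as receptor, held an intronic and an upstream summit. The intronic peak (chr2L:8575040-8575303) had 72.9 in the joint list, 36.3 in replicate 1 and 39.0 in replicate 2, and lay 31842 bp downstream of the nearest start in intron 3, 66730 bp long. The upstream peak (chr2L:8541886-8542149) had the lowest signal of all 19, at 46.1, with 31.4 in replicate 1 and 24.9 in replicate 2. It lay 129 bp upstream of a start site and was not in the authors' conservative set, a second thresholded list of theirs with 1653 peaks on the arms. A further peak 533 bp upstream of Sema1a passed in replicate 1's own set with a signal of 39.1. In the joint list it had 44.5 at an IDR of 0.0305, and in replicate 2 the overlapping place was weaker than in replicate 1.

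The side gene encodes Sidestep, the muscle-borne cue that draws motor axons. Its peak (chr3R:27407112-27407375) had 64.6, with 35.9 in replicate 1 and 30.6 in replicate 2, in intron 2 at 30238 bp from the start. The signal of 64.6 is the median of the 19 member summits. The side peak was in neither replicate's own set but in the conservative set. The remaining ligands were below the threshold. Sema2a, a secreted semaphorin, had its strongest place at 44.2 with an IDR of 0.0141. Sema2b, its paralogue, reached 36.3 at 0.252. For Sema1b, a transmembrane semaphorin, the strongest place had 41.1 at 0.0443 and lay outside the span, 302 bp from a start site of P32.

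Among the receptors, beat-Ib carried the strongest summit of all members. The beat-I genes encode immunoglobulin proteins, of which Beat-Ia is the Sidestep receptor of motor axons. The beat-Ib peak (chr2L:15911154-15911417) had 146.5 in the joint list and was 291st of the 1892 by signal. It was also the most unequal between replicates, with 118.3 in replicate 1 and 35.0 in replicate 2, a ratio of replicate 2 to replicate 1 of 0.296. Of 1852 optimal peaks with a place in both replicates' lists, 16 had a lower ratio (0.864%). The peak lay in intron 2, 51149 bp from the start of beat-Ib, and passed the threshold in replicate 1's own set alone. Beside it, beat-Ia had its strongest place 189 bp upstream of its start with 50.6 at an IDR of 0.0152. The paralogue beat-Ic had 41.6 at 0.0739 in an intron.

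Both netrin receptor genes held 3 summits. At fra, which encodes the attractive receptor Frazzled, the strongest peak (chr2R:12543736-12543999) had 93.2, with 39.9 in replicate 1 and 50.4 in replicate 2. It lay in intron 1 (26746 bp) 14815 bp from the start, and another in that intron (chr2R:12538148-12538411) had 63.0, with 29.2 and 38.6. The remaining fra peak (chr2R:12556554-12556817) was the only one of the 19 in coding sequence. It had 49.8, with 24.8 and 27.3, and was in neither replicate's own set nor in the conservative set. At unc-5, which encodes the receptor for netrin repulsion, the peak of highest signal (chr2R:15339532-15339795) lay 808 bp upstream of the gene. It had 93.8, with 51.5 in replicate 1 and 55.8 in replicate 2, and passed in both own sets. A weaker unc-5 peak (chr2R:15349924-15350187), 77 bp upstream of an internal start site, had 63.2, with 32.9 and 29.5. The last (chr2R:15361686-15361949), in intron 6, had 65.6, with 35.4 in replicate 1 and 19.7 in replicate 2. It was the only intronic summit of unc-5 and was in neither replicate's own set nor in the conservative set. In the conservative set 10 members had an intronic summit.

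The Slit receptor genes robo1, robo2 and robo3 held no summit. Among all members without one, robo2 had the highest signal at its best place and robo1 the lowest. The robo2 place, 84 bp downstream of a start site, had 52.5 in the joint list, 18.6 in replicate 1 and 33.0 in replicate 2. Its signal was above the weakest member summits of the optimal set, while its IDR was 0.569. The lowest IDR of a place at robo2 was 0.0506, at a signal of 48.8. For robo3 the best place had 33.7 and for robo1 28.6. The comm gene, whose product keeps Robo from the growth cone surface, had 47.2 at an IDR of 0.0216.

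The semaphorin receptor genes PlexA and PlexB lie on chromosome 4, where the ranked list was sparse. Their best places had 32.6 and 36.0, both in exons and both with a value in replicate 1's list only. The median number of ranked places per kb was 0 over the 80 protein-coding genes of chromosome 4, against 1.33 over all protein-coding genes and 1.26 over the members. Replicate 1's own thresholded set held a peak 168 bp upstream of a PlexA start site (chr4:1027144-1027393) with a signal of 79.5, at rank 304 in its list. At that position there were 0 places in the joint list and 0 in replicate 2's list.

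Of the phosphatase genes, Ptp10D, which encodes a receptor tyrosine phosphatase of central axons, held 1 summit (chrX:11629011-11629274). It had 61.7, with 27.5 in replicate 1 and 34.9 in replicate 2, and lay in intron 3, 7128 bp from the nearest start. It was in neither replicate's own set but in the conservative set. Lar, the phosphatase of motor and photoreceptor axons, had 46.9 in an intron at an IDR of 0.126. Ptp69D was the only member with 0 places in the joint ranked list, against 6 of its 200 genes of like span. Replicate 1's list held 5 places there and replicate 2's 0.

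Among the adhesion genes, Fas3 (Fasciclin 3, an immunoglobulin protein of homophilic adhesion) held 3 summits within 8863 bp of its start. The strongest (chr2L:18325160-18325423), 5190 bp into intron 1, had 126.2, with 80.8 in replicate 1 and 45.5 in replicate 2, and passed in both own sets. The peak 225 bp downstream of the start (chr2L:18320195-18320458) had 59.2, with 23.6 and 34.3. The peak 8863 bp downstream (chr2L:18328833-18329096) had 55.3, with 24.4 and 37.2. The first was higher in replicate 1 and the other 2 in replicate 2.

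Ten-a, one of the teneurins that match synaptic partners, held a pair of peaks with summits 1419 bp apart near an internal start site, far inside its span of 291517 bp. The first (chrX:12202293-12202556), 1373 bp upstream of that start, had 98.2, with 42.1 in replicate 1 and 53.7 in replicate 2. The other (chrX:12203712-12203975), 46 bp downstream, had 59.4, with 30.5 and 26.4, and an IDR of 0.00968, close to the limit of the set. The second teneurin gene, Ten-m, had its best place at 47.4 with an IDR of 0.0224.

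The remaining adhesion genes held no summit. The highest of their best places was at Dscam2 (48.3), followed by Dscam1 and Fas1 (both 46.8), and the lowest was at Dscam3 (33.9). Dscam genes encode immunoglobulin proteins of self-recognition, and the place at Dscam1, 516 bp from a start site, had an IDR of 0.0237. The place at Fas1, which encodes a fasciclin-domain protein, had 22.5 in each replicate and an IDR of 0.0288. Fas2 (43.0), CadN (42.4), Dscam4 (41.1), dpr1 (40.3) and Nrg (40.3) encode the NCAM-like Fasciclin 2, N-cadherin, a further Dscam protein, a partner of the DIP proteins and the L1-like Neuroglian. At CadN replicate 2's list alone held the place.

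**Figure D3:**
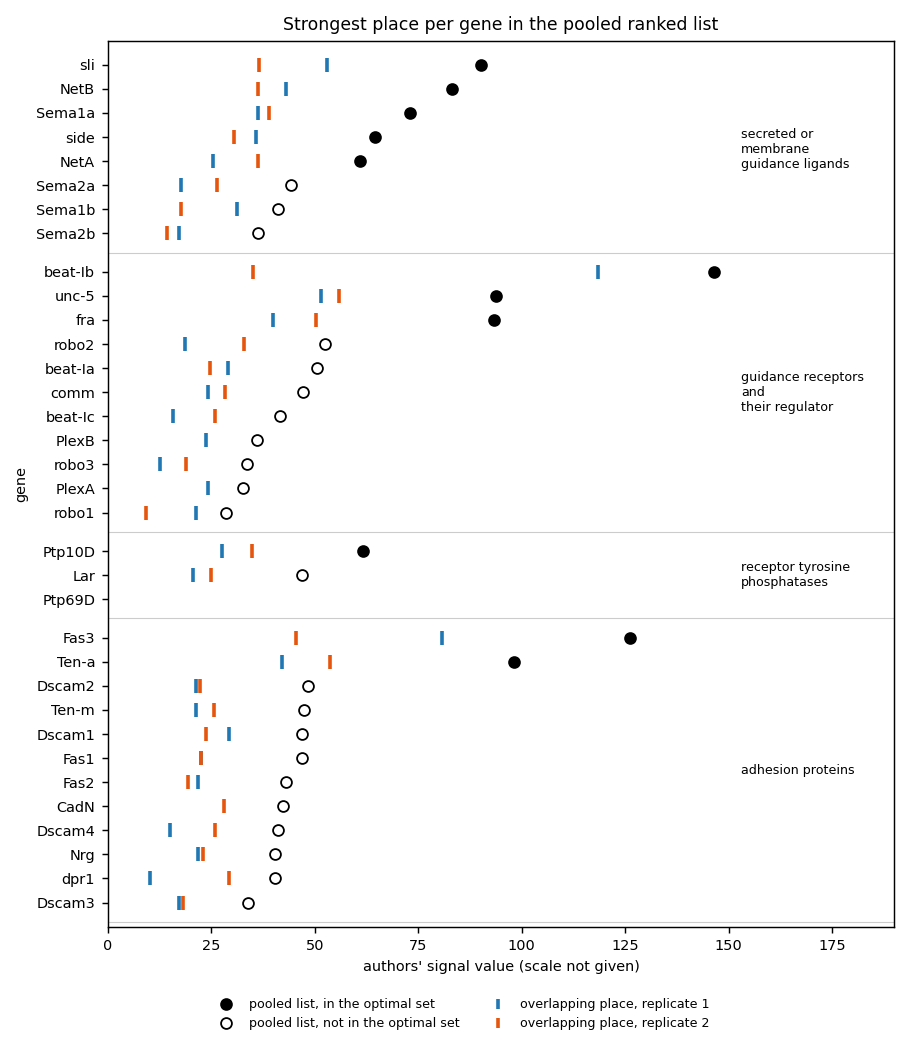
Signal of the strongest place of each member in the ranked list over both replicates (circles) and of the overlapping place in each replicate's list (blue bar, replicate 1; orange bar, replicate 2), by role; filled circles are in the optimal set. Filled circles run from 60.9 at NetA to 146.5 at beat-Ib and open ones from 28.6 at robo1 to 52.5 at robo2; Ptp69D has no place.

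Of the 23 members with no summit, 22 had a place in the joint ranked list. Their best signals had a median of 42.0. For 8 of them the best signal was above the 46.1 of the weakest member summit, so signal and IDR did not order the places alike. The best place was intronic for 14, exonic for 5, near a start site for 2 and outside the span for 1. In 7 of the 23 the lowest IDR was at most 0.05 and in 7 it was above 0.1. Over all 34 members the median best signal was 46.8, against 47.7 for genes of like span and 34.3 for all protein-coding genes, and 17 of 34 were above the median of their like-span genes. An optimal summit lay outside the 1000 bp margin but within 5000 bp of robo2 (2494 bp), robo1 (3667 bp), Lar (4416 bp) and Ten-m (4539 bp).

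The 19 member summits were weaker than optimal summits at large, with a median signal of 64.6 against 78.6 over all 1892, and 7 of the 19 were above that value. Of the 1892, 1082 lay over 500 bp from a start site, as did all but 4 of the 19. Signals of summits at like places were not compared. All 19 had a place in both replicates' ranked lists. Of the 19, 5 were in both replicates' own thresholded sets, 3 in that of replicate 1 alone, 2 in that of replicate 2 alone and 9 in neither (47.4%). Over all optimal summits 32.5% were in neither own set and 35.9% in both. The conservative set held 16 of the 19 (84.2%), against 79.6% of all. For replicate 2 over replicate 1, the median ratio was 1.07 at the member summits and 0.897 over 1852 optimal peaks, with 5th and 95th percentiles of 0.455 and 1.75. The replicates' summits were a median of 17.5 bp from that of the joint list, against 12 bp for all. In replicate 2's own set 6 members held a summit, against 9 in replicate 1's, and the genes of like span fell as well, to 19.6% and 27.4%.

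**Figure D4:**
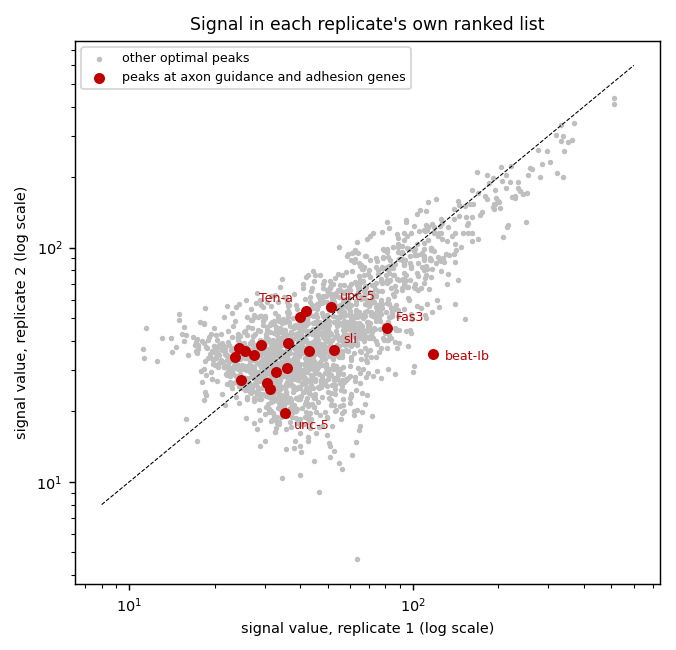
Signal of each optimal peak in the ranked list of replicate 1 (x) and replicate 2 (y), both on log scales, with the 19 peaks at axon guidance and adhesion genes in red and equal values on the dashed line. The member peaks fall on both sides of the line, 9 higher in replicate 1 and 10 in replicate 2, and beat-Ib is farthest from it at a ratio of 0.296.

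Other genes of the same pathways came from 10 lists, in which 173 of 175 names matched and 139 were not members. Of these 139 genes, 33 held a summit (23.7%), against 31.5% of their genes of like span. Among 24 growth cone signalling genes, which encode small GTPases, kinases and actin regulators, 13 held a summit (54.2%) against 25.5%. In 9 of them a summit lay within 1000 bp of a start site, which held for 9.52% of all protein-coding genes. No like-span share of start-site summits is given for this list. In 11 of the 24 a summit had no start site of another gene within 1000 bp. The strongest summit of this list was at Mtl, a Rac-like GTPase, with 530.4 at 238 bp upstream, although CG5611 had the nearest start site. Others were hts (adducin, 166.3), msn (a kinase, 137.3) and tsr (cofilin, 121.5). In a pair of surface protein families the share was below that of genes of like span. Among the other beat and side genes 1 of 18 held a summit (side-V, 56.8; 5.56% against 36.1%). Among the other dpr and DIP genes, which encode paired surface proteins of synaptic partners, 3 of 32 did (dpr20 at 106.9, DIP-alpha at 97.4 and DIP-eta at 48.3; 9.38% against 32.0%).

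In the remaining lists the share lay above, near or below that of genes of like span. Of the other Slit and netrin pathway genes 2 of 5 held a summit (40.0% against 34.7%), the heparan sulphate proteoglycan genes dlp (98.8) and dally (68.5). In the semaphorin list it was 1 of 4 (25.0% against 24.7%), Mical (55.5), the plexin-linked oxidoreductase of actin. In the ephrin, Wnt and Derailed list it was 3 of 8 (37.5% against 33.9%), the Wnt receptor genes fz (158.3), drl (71.8) and fz2 (57.3). In the immunoglobulin adhesion list it was 4 of 16 (25.0% against 35.0%), namely kirre (133.2), ed (114.5), tutl (75.8) and kek4 (64.8). In the cadherin and leucine-rich repeat list it was 4 of 19 (21.1% against 30.9%), namely Lapsyn (119.8), Toll-7 (100.9), ds (87.1) and haf (63.4). The phosphatase gene Ptp4E, closest paralogue of Ptp10D, had 190.8 at 409 bp from its start and was the 1 of 4 in its list (25.0% against 30.8%). In the synaptic list dlg1 (95.1), the scaffold gene Discs large, was the 1 of 9 (11.1% against 31.7%).

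**Figure D5:**
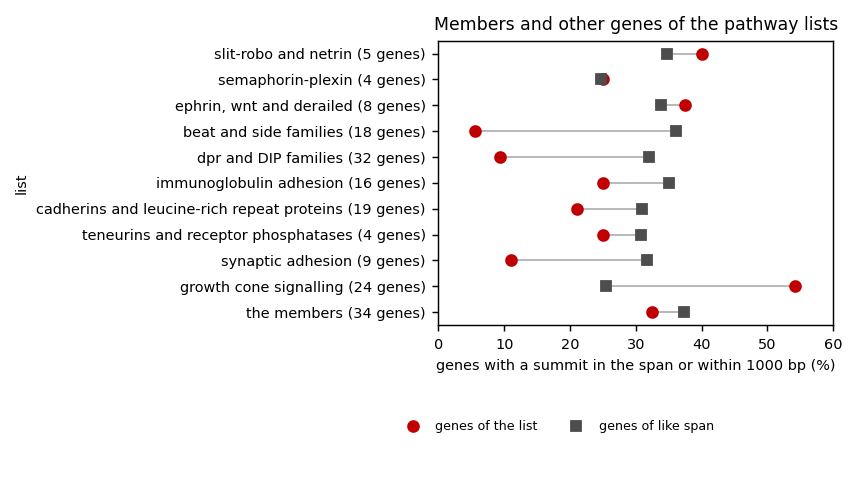
Percentage of genes with an optimal summit in the span or within 1000 bp, for the genes of each pathway list that are not members and, in the last row, for the 34 members (red circles), beside genes of like span (grey squares). The red circle is right of the square by the widest gap for growth cone signalling (54.2% and 25.5%) and left of it by the widest gap for the beat and side families (5.56% and 36.1%).

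In the 19 member windows the motif shares lay on both sides of those of the 1892 optimal windows. In what follows the flanks are the 38 windows centred 500 bp to each side of the member summits. The E-box was in 7 of 19 (36.8%), against 37.2% of optimal windows and 36.8% of the flanks. The TATA box letters were in 5 (26.3%), against 18.2% of optimal windows and 15.8% of the flanks. These 5 were the summits of beat-Ib, side and Ptp10D and the stronger ones of Sema1a and Ten-a, all in introns. The homeodomain core was in 3 (15.8%), at Ten-a, side and upstream of Sema1a, against 8.93% of optimal windows and 5.26% of the flanks. The CA repeat CACACA was in 3 (15.8%), against 7.03% and 13.2%. The A tract was in 2 (10.5%), against 24.5% and 13.2%, and the BEAF-32 core CGATA in 1 (5.26%), against 13.5% and 15.8%. The GAGA element was in 2 (10.5%), against 10.4% and 13.2%, and the Pleiohomeotic core in 2 (10.5%), against 16.0% and 13.2%. The DNA replication-related element TATCGATA, motif 1 (GGTCACACT) and the Zelda site CAGGTA were in 0 of 19, and in 1.16%, 0.634% and 2.27% of optimal windows. Most member summits were away from start sites. In the 1082 optimal windows over 500 bp from a start site these shares were 0.0924%, 0.185% and 2.68%. There the BEAF-32 core was in 10.2% and the A tract in 23.4%. The TATA box was in 17.3% of those windows, the homeodomain core in 7.86% and the CA repeat in 7.67%. The E-box was in 39.2% of them, the GAGA element in 12.6% and the Pleiohomeotic core in 16.3%. The E-box form CAGCTG was in 1 of 19 member windows (5.26%), against 3.49% of optimal windows and 5.26% of the flanks. The GC content of the member windows had a median of 37.6%, close to the 37.1% of their flanks, and of the 13 intronic windows 32.7%. Over all optimal windows the median was 34.7% and over their own flanks 42.6%. With 19 windows, 1 window is 5.26%, so these shares differ by few windows.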

How the data were processed

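The authors deposited peak lists of anti-GFP ChIP-seq on build dm6, per the labels, for 2 biological replicates and for both together. Per the deposited columns, a peak has a signal value, a score of at most 1000, a −log10 of the IDR and a summit offset, other columns being unused. The aligner, the peak caller, the control handling and the signal scale were not given in the sources used here. Depth is unknown. The optimal set, the conservative set, the ranked list over both replicates and each replicate's own lists were used; 8 further columns of the joint ranked list, with no sample label, were not. With no depth, no interval was computed.

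A summit counted for a gene if it lay in the gene's span or within 1000 bp (Ensembl release 115). Places overlapped by at least 1 bp. Genes of like span were the 200 nearest in log span, members excluded. Windows of 50 bp to each side of a summit and flanks centred 500 bp to each side were read from RefSeq Release 6, and windows that touch an exon are not printed. The sequence and position of the NetB window are not reported here. Python 3.11.15 with NumPy 2.4.6, pandas 2.3.3, SciPy 1.17.1 and Matplotlib 3.10.9 was used, and the counting was tested on simulated data with planted summits.

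The members and lists were chosen with earlier results of these data known, so counts are descriptions and no test was run. Named genes were every member, and up to 4 genes with the highest signal in each further list. The 2 replicates are biological per the labels. Alternatives were other sets, margins, start-site distances, gene models, span neighbours and window sizes.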

Additional observations from a re-analysis of the deposited data

How the results depend on the processing

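No paired analysis was possible because there was 1 group. Each replicate's own set gave 6 to 9 members with a summit, 1 to 3 near a start site, 5 to 7 with an intronic summit and 7 to 10 summits. Over the 946 optimal peaks of highest signal these counts were 7, 1, 6 and 7. The 7 members with a summit are 20.6%, against 21.7% of genes of like span and 7.95% of all protein-coding genes. At an IDR of at most 0.05, a setting chosen after seeing the data, 18 members (52.9%) held a summit, against 55.9% of genes of like span. The like-span percentage was 30.9% with no margin, below the members' 32.4%. With neighbours on the same arm it was 31.8%, but those neighbours are matched more loosely in span. For PlexA and PlexB they were all other genes of the same chromosome, whatever their span. The 31.8% is therefore not read as a share of genes of like span. In windows of 100 bp to each side the BEAF-32 core was in 26.3% (5.26% as reported), the E-box in 73.7% (36.8%), the A tract in 42.1% (10.5%), the TATA box in 47.4% (26.3%), the homeodomain core in 26.3% (15.8%) and the GAGA element and the Pleiohomeotic core each in 21.1% (10.5%) of member windows. No shares of optimal windows or flanks are given at this width. The motif comparisons above therefore hold for windows of 50 bp to each side only. A margin of 5000 bp gave 15 members, and no like-span percentage is given at that margin. The cause of these changes was not tested. With unknown depth, a gene with no summit is not shown to lack binding.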
